A study of Homo sapiens with 12 samples.

Results

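The 10 genes described here encode Polycomb repressive complex 2 (PRC2): the catalytic subunits EZH2 and EZH1, the core subunits SUZ12, EED, RBBP4 and RBBP7, and the accessory subunits JARID2, AEBP2, MTF2 and PHF19. They were taken by gene name from 29657 genes listed for SCC15 and 31055 for SCC25, and all 10 were listed and tested in both. SCC15 and SCC25 are cell lines of head and neck squamous cell carcinoma (HNSCC). Each was treated for 24 h with squamocin, named ACGs (annonaceous acetogenins) in the labels and given at 10 µg/mL in the methods, or with DMSO alone, in 3 libraries per treatment and 12 in all. The labels name no engineered allele for these groups. The study asked how squamocin acts on EZH2, and RNA counts address the transcript level alone, not the protein.

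PRC2 adds methyl groups to lysine 27 of histone H3, a mark of silenced genes. EZH2 is the main methyltransferase of dividing cells, whereas EZH1 is the weaker enzyme that prevails in resting cells. EED and SUZ12 are needed for activity, RBBP4 and RBBP7 bind histones and also serve other chromatin complexes, and the accessory subunits define 2 alternative assemblies: PRC2.1, with MTF2, PHF19 or PHF1, and PRC2.2, with JARID2 and AEBP2. EZH2 is often abundant in tumours, including squamous carcinomas.

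Values, called normalized counts here, are reads per gene after division by a size factor that each library has of its own. The recovered reads numbered 16665563 to 22748845 per library, and the precision of each value was limited by these depths and by 3 libraries per group. The labels do not say that replicates were separate cultures, so the spread may be technical. Squamocin replicate 3 of SCC15 stood apart, with a chi-square per degree of freedom of 64.1 and 56.8 against replicates 1 and 2, compared with 1.67 to 9.95 for the other pairs within groups. The authors' scaling also left the treatments with unlike totals, with 15466464 to 15535484 normalized counts per DMSO library and 20467856 to 24626253 per squamocin library in SCC15, and 18245022 to 18333723 and 20917114 to 21265099 in SCC25. With libraries scaled to equal totals, the median log2 fold change of all genes moved from 0.01 to −0.48 in SCC15 and from −0.01 to −0.22 in SCC25, and the all-gene calls in SCC15 moved from 4921 higher and 4773 lower to 2357 higher and 8032 lower. Of 7 squamous markers, the keratin KRT17 was abundant in both lines, but KRT5 and the desmosomal cadherin DSG3 had a mean under 10 in SCC15, where TP63 had a mean of 10.5 normalized counts with squamocin and 17.5 with DMSO.

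The promoters of 5 members are shown. The E2F factors, which drive genes of dividing cells, are textbook regulators of EZH2. Those of EZH2, EZH1, MTF2 and SUZ12 hold an E2F match, whereas that of RBBP4 holds an E-box and no E2F match. AEBP2 and PHF19 also have an E2F match and are not shown. The sequences are those of RefSeq on GRCh38.p14, from 250 bases before to 20 bases after the annotated start site, 5′ to 3′ on the strand of the gene. Capitals mark an E2F match (TTTCCCGC, TTTGGCGC, TTTCGCGC or TTTGCCGC on either strand) and, in RBBP4, the E-box CACGTG. EZH2 and RBBP4 each have a further annotated promoter, not shown, which holds neither an E2F match nor the E-box.
EZH2, chr7:148884272-148884541, minus strand: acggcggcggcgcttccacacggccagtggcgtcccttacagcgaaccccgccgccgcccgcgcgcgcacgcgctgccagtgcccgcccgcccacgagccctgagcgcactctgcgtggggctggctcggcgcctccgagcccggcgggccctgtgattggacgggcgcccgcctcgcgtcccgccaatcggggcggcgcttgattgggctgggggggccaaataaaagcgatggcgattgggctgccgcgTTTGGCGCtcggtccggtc
EZH1, chr17:42745021-42745290, minus strand: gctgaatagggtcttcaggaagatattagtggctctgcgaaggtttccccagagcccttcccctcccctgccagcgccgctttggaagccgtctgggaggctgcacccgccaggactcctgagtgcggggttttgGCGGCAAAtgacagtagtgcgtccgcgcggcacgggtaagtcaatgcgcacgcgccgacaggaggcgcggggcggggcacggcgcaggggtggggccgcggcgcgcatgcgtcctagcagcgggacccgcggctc
MTF2, chr1:93079033-93079302, plus strand: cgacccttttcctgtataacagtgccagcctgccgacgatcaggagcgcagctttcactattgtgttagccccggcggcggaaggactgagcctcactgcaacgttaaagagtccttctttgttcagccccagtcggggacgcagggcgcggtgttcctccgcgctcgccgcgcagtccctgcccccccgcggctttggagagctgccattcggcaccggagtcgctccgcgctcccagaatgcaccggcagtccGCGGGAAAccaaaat
SUZ12, chr17:31936757-31937026, plus strand: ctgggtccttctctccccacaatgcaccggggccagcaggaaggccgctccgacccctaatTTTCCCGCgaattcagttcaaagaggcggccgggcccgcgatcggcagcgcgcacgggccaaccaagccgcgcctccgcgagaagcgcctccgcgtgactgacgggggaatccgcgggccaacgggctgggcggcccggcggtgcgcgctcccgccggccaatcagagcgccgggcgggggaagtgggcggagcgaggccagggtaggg
RBBP4, chr1:32650958-32651227, plus strand: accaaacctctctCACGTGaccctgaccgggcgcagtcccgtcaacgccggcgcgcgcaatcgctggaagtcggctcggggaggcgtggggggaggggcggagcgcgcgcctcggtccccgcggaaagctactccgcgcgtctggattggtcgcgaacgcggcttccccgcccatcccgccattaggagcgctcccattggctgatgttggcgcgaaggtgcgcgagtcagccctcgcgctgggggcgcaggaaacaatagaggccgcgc

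Over windows of 300 bases, an E2F match was found for 6 of the 10 members (EZH2, EZH1, SUZ12, AEBP2, MTF2 and PHF19), in 6 of their 15 annotated promoters, compared with 3.32% of all 35116 promoters. The first letter of the match lay 2 bases into the transcript of EZH2 and 6 bases into that of MTF2, and 115 and 189 bases before the start in EZH1 and SUZ12. No relation of the matches to the response was tested. The letters CCAAT were found for 7 members, EZH2 with 4 copies, in 10 of the members' 15 promoters, compared with 34.6% of all promoters. The windows of RBBP4 overlap, and a CCAAT site that they share was counted in both. TTTGAA was found in 1 of the 15, for SUZ12 (15.2% of all promoters). The E-box was found in 1, for RBBP4 (7.26%), and TGATGCAA in 0 (0.866%). The windows of the members held 52.3% to 79.7% G or C, compared with a median of 58.7% over all promoters, and the shares were not matched for this. A match is a run of letters, and binding was not measured.

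In SCC15, 4 of 10 members were higher with squamocin (EZH1, MTF2, PHF19 and AEBP2) and 2 were lower (RBBP4 and JARID2), and 4 did not pass the test. Of all genes tested, 30.9% were called higher and 30.0% lower. In SCC25 all 10 passed, 7 higher (MTF2, EZH1, AEBP2, SUZ12, PHF19, EZH2 and EED) and 3 lower (RBBP4, RBBP7 and JARID2), compared with 38.3% and 38.5% of all genes. The median log2 fold change of the members was 0.26 in SCC15 and 0.68 in SCC25, compared with 0.01 and −0.01 over all genes. The 3 squamocin libraries lay outside the range of the 3 DMSO libraries for each of the 10 members in both lines, 7 above and 3 below in SCC15 and 7 above and 3 below in SCC25. Over all genes this held for 35.7% above and 34.9% below in SCC15, and for 39.4% above and 39.6% below in SCC25. With equal library totals, the calls in SCC15 were 2 higher (EZH1 and MTF2) and 4 lower (SUZ12, RBBP4, RBBP7 and JARID2). Those in SCC25 stayed at 7 and 3 with every direction as before. Of all 15902 genes tested in SCC15, 2357 were then higher and 8032 lower. Of all 16539 in SCC25, 5032 were higher and 7839 lower.

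**Figure D1:**
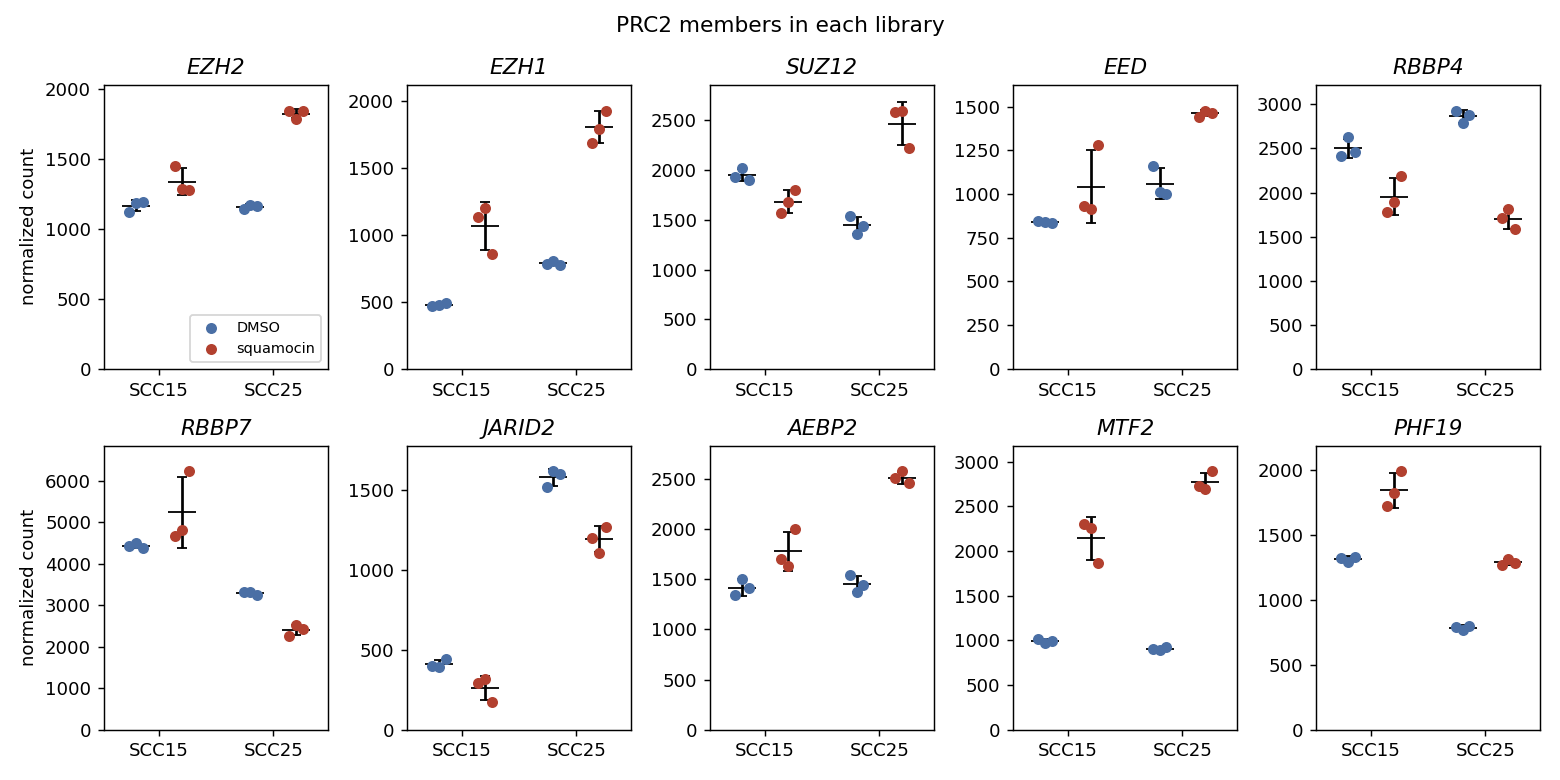
Normalized count (linear axis from 0) of each PRC2 member in each library, with 1 point per library, a bar at the mean and whiskers of 1 SD (n = 3). MTF2 and EZH1 rose in both lines, RBBP4 and JARID2 fell in both, and SUZ12 and RBBP7 lay on opposite sides of DMSO in the 2 lines, although RBBP7 was lower in both with equal library totals.

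EZH2 (ENSG00000106462; GRCh38 chromosome 7, 148807383 to 148884321, minus strand), the catalytic subunit that the study follows, had normalized counts of 1446, 1285 and 1278 with squamocin in SCC15, and 1119, 1183 and 1192 with DMSO. In SCC25 it had 1839, 1784 and 1842 with squamocin and 1141, 1173 and 1159 with DMSO. On this scale every squamocin library was above every DMSO library, and the mean with DMSO was 1165 ± 39.8 and 1158 ± 15.9 (SD, n = 3) in SCC15 and SCC25, whose tables were scaled separately. Its log2 fold change was 0.65 in SCC25 (standard error, SE, 0.046, with an adjusted p of 4.15e-08 from limma after Benjamini-Hochberg adjustment) and 0.20 in SCC15 (SE 0.087, 95% confidence interval −0.01 to 0.40, adjusted p = 0.0851, limma), which did not pass. Without squamocin replicate 3 of SCC15, that value was 0.23 and passed (adjusted p = 0.00167, limma). With equal library totals it was −0.30 in SCC15 (adjusted p = 0.061, limma) and 0.45 in SCC25.

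EZH1 (ENSG00000108799; chromosome 17, 42700275 to 42745049, minus strand), the second catalytic subunit, more than doubled with the authors' scaling. It rose from 469, 476 and 491 normalized counts with DMSO to 1131, 1204 and 860 with squamocin in SCC15, where replicate 3 was the lowest of the treated libraries. In SCC25 it rose from 784, 803 and 777 to 1689, 1793 and 1926. The log2 fold change was 1.14 (SE 0.13, adjusted p = 0.000366, limma) in SCC15 and 1.19 (SE 0.057, adjusted p = 1.19e-09) in SCC25. The lines differed by −0.05 (95% confidence interval −0.38 to 0.27, adjusted p = 0.789, limma), an interval that leaves room for a difference of either sign. With equal library totals the log2 fold change of EZH1 was smaller, at 0.64 in SCC15 (adjusted p = 0.0199, limma) and 0.98 in SCC25 (adjusted p = 1.07e-08).

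Per kilobase of the MANE Select transcript, EZH2 stood above EZH1 in every library, but by less after squamocin. The ratio of EZH2 to EZH1 was 4.16, 4.34 and 4.24 with DMSO and 2.23, 1.86 and 2.60 with squamocin in SCC15, and 2.54, 2.55 and 2.60 with DMSO and 1.90, 1.74 and 1.67 with squamocin in SCC25. The log2 ratio changed by −0.94 in SCC15 and −0.54 in SCC25, with no overlap between treatments in either line. Which of the 2 stood higher depended on the length used: per kilobase of the union of all exons, EZH2 had 108.1 and EZH1 68.5 with DMSO in SCC15, but 124 and 152 with squamocin, and in SCC25 they had 107.4 and 112.8 with DMSO and 169 and 258 with squamocin. The change of the log2 ratio does not depend on that length, nor on how libraries are scaled. An exact permutation test of 3 libraries against 3 gave p = 0.1, the smallest it allows, for each of the 8 tests of ratios, two-sided, and the adjusted p was 0.1 as well.

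SUZ12 (ENSG00000178691; chromosome 17, 31937018 to 32001045, plus strand), a core subunit without which the enzyme is unstable, differed most between the lines among the 10 members. It had 1927, 2019 and 1900 normalized counts with DMSO and 1566, 1684 and 1798 with squamocin in SCC15. In SCC25 it had 1535, 1360 and 1440 with DMSO and 2583, 2597 and 2218 with squamocin. All squamocin libraries were below the DMSO libraries in SCC15 and above them in SCC25. The log2 fold change was −0.21 in SCC15 (SE 0.086, adjusted p = 0.0631, limma), where it did not pass, and 0.77 in SCC25 (SE 0.067, adjusted p = 3.19e-07), a difference of −0.98 (adjusted p = 1.77e-05, limma). In SCC15, SUZ12 passed as lower with TMM factors (adjusted p = 0.0149, limma), edgeR (0.0163), DESeq2 (0.0216), equal library totals and without squamocin replicate 3. Its pseudogene SUZ12P1, whose reads can be hard to tell from those of SUZ12, had 13.4% of the mean of SUZ12 in SCC15 and 13.0% in SCC25, and its own counts were 247 to 382 with squamocin and 166 to 199 with DMSO in SCC15. How the counting divided reads between them was not tested.

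EED (ENSG00000074266; chromosome 11, 86244544 to 86278813, plus strand) binds the methylated histone and stimulates the enzyme. It had 933, 912 and 1280 normalized counts with squamocin and 845, 840 and 834 with DMSO in SCC15, where replicate 3 was far above the other treated libraries. The log2 fold change of 0.29 there did not pass (adjusted p = 0.0985, limma), and it was 0.14 without that replicate (adjusted p = 0.0369). In SCC25, EED rose from 1161, 1013 and 1002 to 1441, 1476 and 1465, a log2 fold change of 0.47 (SE 0.061, adjusted p = 1.51e-05, limma). The ratio of SUZ12 to EED per kilobase was 1.06, 1.12 and 1.06 with DMSO and 0.780, 0.858 and 0.652 with squamocin in SCC15. In SCC25 it was 0.614, 0.624 and 0.668 with DMSO and 0.832, 0.817 and 0.703 with squamocin. It therefore moved in opposite directions, with a log2 difference of −0.51 in SCC15 and 0.30 in SCC25 (exact permutation p = 0.1 each).

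The histone-binding subunits RBBP4 and RBBP7 are close paralogs. RBBP4 (ENSG00000162521; chromosome 1, 32651142 to 32686211, plus strand) fell from 2418, 2626 and 2460 normalized counts to 1782, 1889 and 2187 in SCC15, and from 2927, 2786 and 2874 to 1712, 1809 and 1588 in SCC25. Its log2 fold change was −0.36 (SE 0.10, adjusted p = 0.0162, limma) and −0.75 (SE 0.053, adjusted p = 4.26e-08). The call in SCC15 was lost without squamocin replicate 2, DMSO replicate 2 or DMSO replicate 3 (adjusted p = 0.0524, 0.0738 and 0.0564, limma). RBBP4 shares 22.8% of its exonic bases with SYNC on the opposite strand, whose counts were 63.5 to 92.7 with squamocin and 361 to 421 with DMSO in SCC15 and at most 10.8 in SCC25. The strand setting of the counting is not given in the sources used here, and the part of SYNC in the fall of RBBP4 was not tested.

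RBBP7 (ENSG00000102054; chromosome X, 16839283 to 16870414, minus strand) had 4682, 4816 and 6229 normalized counts with squamocin and 4428, 4492 and 4391 with DMSO in SCC15. In SCC25 it fell from 3324, 3315 and 3252 to 2266, 2525 and 2427, a log2 fold change of −0.46 (SE 0.047, adjusted p = 1.75e-06, limma). The value in SCC15 was 0.23 (adjusted p = 0.142, limma). Replicate 3 was the highest library, and without it the value was 0.10 (adjusted p = 0.0343), while with equal library totals it was −0.27 (adjusted p = 0.0174). The lines differed by 0.68 (SE 0.13, adjusted p = 0.000924, limma). RBBP7 had the highest count per kilobase of the MANE Select transcript among the 10 members in each group, and the ratio of RBBP4 to RBBP7 went from 0.158, 0.169 and 0.162 to 0.110, 0.114 and 0.102 in SCC15 and from 0.255, 0.243 and 0.256 to 0.219, 0.207 and 0.189 in SCC25.

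Of the PRC2.2 subunits, JARID2 and AEBP2 moved apart. JARID2 (ENSG00000008083; chromosome 6, 15246296 to 15522040, plus strand), a DNA- and nucleosome-binding subunit, had 294, 318 and 174 normalized counts with squamocin and 400.1, 390 and 441 with DMSO in SCC15. In SCC25 it had 1199, 1110 and 1273 with squamocin and 1521, 1618 and 1603 with DMSO. It fell in both lines, with a log2 fold change of −0.69 (SE 0.22, adjusted p = 0.0282, limma) in SCC15 and −0.41 (adjusted p = 3.45e-05) in SCC25. In SCC15 the size rested in part on replicate 3, without which it was −0.42 (adjusted p = 0.000182), and the call was lost without any 1 of the DMSO libraries (adjusted p = 0.0658 to 0.0917, limma).

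AEBP2 (ENSG00000139154; chromosome 12, 19404045 to 19720801, plus strand), a zinc finger subunit that stimulates the enzyme, had 1702, 1632 and 2001 normalized counts with squamocin and 1338, 1505 and 1408 with DMSO in SCC15. In SCC25 it had 2505, 2574 and 2456 with squamocin and 1538, 1373 and 1444 with DMSO. The log2 fold change was 0.79 in SCC25 (SE 0.051, adjusted p = 1.94e-08, limma) and 0.32 in SCC15 (SE 0.10, adjusted p = 0.0286), and the latter was lost without any 1 of the DMSO libraries (adjusted p = 0.0544 to 0.114) and turned to −0.17 with equal library totals (adjusted p = 0.0959).

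The PRC2.1 subunits MTF2 and PHF19, which carry a Tudor domain and PHD fingers, both rose, although PHF19 did not pass in SCC15 with equal library totals. MTF2 (ENSG00000143033; chromosome 1, 93079235 to 93139081, plus strand) rose from 1019, 974 and 997 normalized counts to 2301, 2257 and 1870 in SCC15, and from 901, 890 and 925 to 2728, 2700.0 and 2892 in SCC25. Its log2 fold change was 1.10 (SE 0.10, adjusted p = 0.000132, limma) and 1.61 (SE 0.048, adjusted p = 1.84e-11). The tripling in SCC25 was the largest fold of the 10 members, and the rise passed the test in both lines without any 1 library and with equal library totals, where it was 0.60 in SCC15 and 1.41 in SCC25.

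PHF19 (ENSG00000119403; chromosome 9, 120855652 to 120894896, minus strand) rose from 1324, 1291 and 1331 to 1721, 1824 and 1988 in SCC15, and from 791, 764 and 799 to 1268, 1317 and 1284 in SCC25. The log2 fold change was 0.48 (SE 0.085, adjusted p = 0.00216, limma) and 0.72 (SE 0.051, adjusted p = 5.06e-08). Scaled to equal library totals, the value in SCC15 was −0.01 (adjusted p = 0.891). The sum of JARID2 and AEBP2 over that of MTF2 and PHF19, each per kilobase, fell from 0.520, 0.587 and 0.557 to 0.348, 0.335 and 0.397 in SCC15. In SCC25 it fell from 1.26, 1.26 and 1.23 to 0.645, 0.639 and 0.621. The sum for PRC2.1 holds these 2 members alone and leaves out PHF1, EPOP, LCOR and LCORL, so that the ratio does not compare the whole of either assembly. The log2 differences were −0.63 and −0.97 (exact permutation p = 0.1 each).

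Of the other PRC2 subunits, PHF1, EPOP, LCOR and LCORL were listed. PHF1, a PRC2.1 subunit related to MTF2, rose from 680 to 701 normalized counts with DMSO to 2001 to 2414 with squamocin in SCC15, and from 874 to 924 to 2841 to 3130 in SCC25. This was a rise of 1.66 on the log2 scale in SCC15 (adjusted p = 2.1e-05, limma) and of 1.70 in SCC25 (adjusted p = 2.41e-11). EPOP, a PRC2.1 subunit that links it to elongin, fell in both lines, with log2 fold changes of −1.61 in SCC15 (adjusted p = 0.000121, limma) and −1.57 in SCC25 (1.33e-08). LCOR, whose locus encodes the PRC2.1 subunit PALI1, fell by 1.08 in SCC15 (adjusted p = 0.00136) and rose by 0.27 in SCC25 (adjusted p = 0.000435), where the rise was lost with equal library totals (0.06, adjusted p = 0.263). LCORL, its paralog, rose by 1.35 in SCC25 (adjusted p = 1.02e-08) and was at 0.31 in SCC15 (adjusted p = 0.173, limma), the single case of the 14 subunits with overlap between treatments. Counts for LCOR and LCORL take in transcripts that do not encode the PRC2 subunit.

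**Figure D2:**
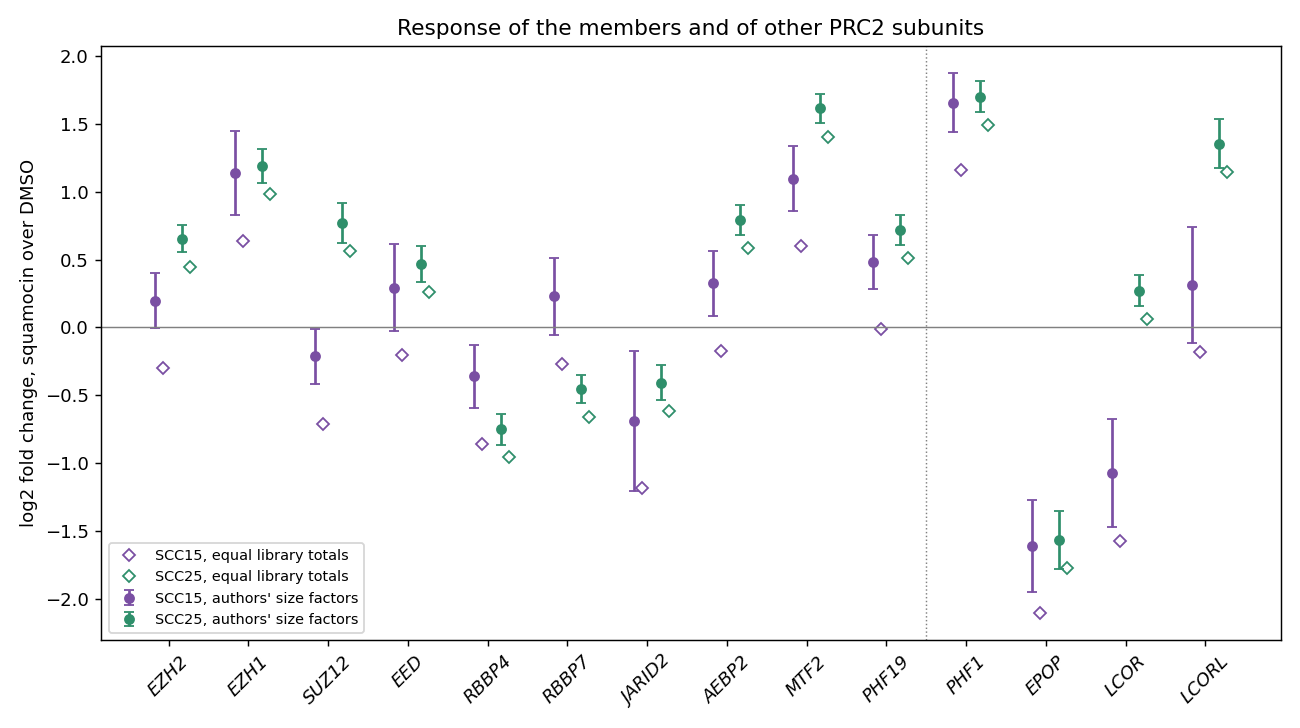
Log2 fold change of squamocin over DMSO for the 10 members (left of the dotted line) and 4 other PRC2 subunits, with filled points for the authors' size factors, whiskers for the 95% confidence interval from limma and open diamonds for equal library totals. In SCC15 the diamonds of EZH2, EED, RBBP7, AEBP2, PHF19 and LCORL lie on the other side of 0 from the points, and no gene crosses 0 in SCC25.

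The response differed between the lines for 6 of the 10 members, compared with 52.2% of all genes tested in both. It was lower in SCC15 than in SCC25 for EZH2 (−0.46, adjusted p = 0.00126), SUZ12, AEBP2 (−0.47, adjusted p = 0.00502) and MTF2 (−0.52, adjusted p = 0.00187, limma), and higher for RBBP4 (0.39, adjusted p = 0.0133) and RBBP7. For RBBP4 the difference was lost with equal library totals (adjusted p = 0.365). EED differed by −0.17 (95% confidence interval −0.52 to 0.17), JARID2 by −0.28 (−0.81 to 0.24) and PHF19 by −0.23 (−0.44 to −0.03, adjusted p = 0.055), none of which passed. PHF19 did pass with TMM factors (adjusted p = 0.0122, limma), edgeR (0.0199), DESeq2 (0.015), equal library totals (0.000197) and without squamocin replicate 3 of SCC15 (0.00155), and EED passed without that replicate (−0.33, adjusted p = 0.00202) and with equal library totals (−0.46, adjusted p = 0.00375).

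Per kilobase of the MANE Select transcript, RBBP7 led the members with DMSO at 1945 normalized counts in SCC15 and 1445 in SCC25. In SCC15 it was followed by EZH2 (439), SUZ12 (434), EED (402.0), RBBP4 (317), PHF19 (317), MTF2 (245), AEBP2 (243), EZH1 (103) and JARID2 (68.3), where EZH2 and SUZ12, RBBP4 and PHF19, and MTF2 and AEBP2 overlapped. In SCC25 the order was EED (507), EZH2 (436), RBBP4 (363), SUZ12 (322), JARID2 (263), AEBP2 (249), MTF2 (222), PHF19 (189) and EZH1 (170.1), and of these neighbours only JARID2 and AEBP2 overlapped. JARID2 was thus the lowest member with DMSO in SCC15 and in the middle of the DMSO order in SCC25. After squamocin JARID2 was the lowest in both lines (43.7 and 199), although it overlapped RBBP4 (216) in SCC25. With squamocin MTF2 moved up to the second place in SCC15 (526) and the fourth in SCC25 (681). Neighbours overlapped from MTF2 through EZH2 (503) and EED (499) to PHF19 (445) in SCC15, and from EED through EZH2 to MTF2 in SCC25. The order depends on the transcript taken: over the union of all exons, EZH2 with DMSO came in place 8 in SCC15 and 10 in SCC25, and RBBP7 with squamocin in SCC25 came in place 4.

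The genes with a pattern most like EZH2 were sought among 9697 protein-coding genes, by Pearson correlation over 12 libraries of log2 values centred within each line. ZBTB25 (r = 0.993), CHORDC1 (0.991), SEC23IP (0.990), GK (0.990) and UVRAG (0.990) came first. The libraries share their treatment, so that these values mostly reflect a like response in both lines, and with equal library totals the ranks of the 5 became 188, 1202, 9, 168 and 3. Among the members, MTF2 (0.939), AEBP2 (0.933) and PHF19 (0.903) were closest to EZH2, EZH1 was at 0.871, and RBBP4 (−0.963) was furthest. This order also changed with equal library totals, where SUZ12 and AEBP2 (0.843 each) were closest, PHF19 was at 0.769, MTF2 at 0.564, EZH1 at 0.462 and RBBP4 at −0.224, and RBBP7 (−0.544) was furthest.

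Genes that act around PRC2 moved in both directions. For comparison with each list below, 30.9% of all genes tested were called higher and 30.0% lower in SCC15. In SCC25 these shares were 38.3% and 38.5%. For the list counts with equal library totals, the comparison is 2357 higher and 8032 lower of all 15902 genes in SCC15. In SCC25 it is 5032 higher and 7839 lower of 16539. Of 7 genes of the KDM6 demethylases, which remove the mark, and their COMPASS-like complex, 1 was higher and 2 were lower in SCC15, and 3 were higher and 4 lower in SCC25 (medians −0.38 and −0.58). The demethylase KDM6B rose by 0.86 (adjusted p = 0.0093, limma) and 0.76 (adjusted p = 1.4e-06), KDM6A rose by 0.92 in SCC25 (adjusted p = 1.29e-07), and the H3K4 methyltransferase KMT2D fell, at −1.73 (adjusted p = 0.0186) and −1.41 (adjusted p = 5.71e-09). The subunit PAXIP1 fell by 1.09 in SCC15 (adjusted p = 0.00165) and PAGR1 fell by 1.52 in SCC25 (adjusted p = 1.3e-06). The rise of KDM6B in SCC15 was lost with equal library totals, where 0 of the 7 were higher and 6 lower.

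Of 19 genes of the other complexes that hold RBBP4 and RBBP7, 4 were higher and 6 lower in SCC15 (median 0.01), and 6 were higher and 10 lower in SCC25 (median −0.20). CHAF1A, the large subunit of the chromatin assembly factor CAF-1, fell by 0.91 in SCC15 (adjusted p = 9.87e-05, limma) and fell by 1.85 in SCC25 (adjusted p = 7.57e-12), and CHAF1B fell by 1.08 in SCC25 (adjusted p = 1.24e-07). BPTF of the remodeller NURF fell by 1.01 in SCC15 (adjusted p = 0.00573), where SAP18 of SIN3 and MBD2 of NuRD rose by 0.84 and 0.81. The remodeller CHD4 of NuRD rose by 1.51 in SCC25 (adjusted p = 1.72e-09) and SAP30 by 0.92. The counts became 1 higher and 12 lower in SCC15, and 6 and 13 in SCC25, with equal library totals.

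Of 14 enzymes given as acting on EZH2 protein, 6 were higher and 3 lower in SCC15 (median 0.06), and 8 were higher and 5 lower in SCC25 (median 0.22). The ubiquitin ligase subunit FBXW7 rose by 0.62 in SCC15 (adjusted p = 0.00196, limma), from 292 to 451 normalized counts, and by 0.95 in SCC25 (adjusted p = 5.09e-08), from 607 to 1175, the latter value being named after it was seen. STUB1 rose by 0.62 in SCC15 (adjusted p = 0.015), where the ligase BTRC and the deubiquitinase USP1 fell (−0.98 and −0.49). STUB1 was called lower in SCC25 (−0.58, adjusted p = 3.87e-06, limma), and USP1 was called higher there (0.25, adjusted p = 0.00723). TRAF6 and the kinase CDK1 rose by 1.50 and 1.25 in SCC25, where PJA1 and AKT1 fell (−0.90 and −0.87). AKT1 was called higher in SCC15 (0.34, adjusted p = 0.0155, limma). With equal library totals, 0 of the 14 were higher and 7 lower in SCC15, and 5 and 5 in SCC25.

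Of 11 E2F and RB factors, 2 were higher and 6 lower in SCC15 (median −0.63), and 3 were higher and 5 lower in SCC25 (median −0.13). E2F2, an activating factor, fell in both lines, at −2.44 (adjusted p = 1.99e-05, limma) and −3.15 (adjusted p = 1.97e-08), and E2F5, a repressive one, rose by 1.96 (adjusted p = 0.000126) and 1.12 (adjusted p = 3.83e-07). E2F8 fell by 2.05 and E2F4 rose by 0.79 in SCC15, while E2F1 fell by 1.66 and E2F7 rose by 1.83 in SCC25. Of 18 proliferation markers, 3 were higher and 8 lower in SCC15, and 7 were higher and 10 lower in SCC25 (medians −0.18 and −0.43). The replication helicase genes MCM2 and MCM3 fell in SCC25 (−3.56 and −2.68), where the mitotic kinase genes BUB1 and AURKA rose by 1.33 and 1.22. In SCC15 CCNE2 and MKI67 fell (−1.92 and −1.36), and BUB1 and CCNB2 rose by 0.59 and 0.42, but with equal library totals 0 of the 18 were higher and 15 lower there, and 5 and 10 in SCC25. The summed proliferation markers were 39280 to 42890 with squamocin and 47700 to 48100 with DMSO in SCC15, and 36300 to 39930 and 53830 to 54240 in SCC25, and the part of cell-cycle composition in the counts of PRC2 genes was not tested.

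Of 32 genes commonly given as repressed by EZH2, 25 were tested in SCC15, with 10 higher and 5 lower (median 0.15), and 29 in SCC25, with 16 higher and 12 lower (median 0.35). Over all genes, 30.9% were higher and 30.0% lower in SCC15, and 38.3% and 38.5% in SCC25. The cell-cycle inhibitor gene CDKN1C rose by 3.66 (adjusted p = 2.72e-05, limma) and 2.47 (adjusted p = 2.54e-09). KLF2 rose by 1.99 in SCC15 and the cyclin gene CCND2 by 1.88 in SCC25. WNT5A fell in both lines, at −1.02 (adjusted p = 0.000347) and −3.71 (adjusted p = 1.18e-09), the Wnt antagonist gene DKK1 fell by 2.06 in SCC15, and the protease inhibitor gene TIMP3 fell by 4.92 in SCC25. TIMP3 was called higher in SCC15 (0.30, adjusted p = 0.0248, limma). The list includes genes that the study names from these samples, so that its count is not independent evidence. With equal library totals, 6 were higher and 14 lower in SCC15, and 13 and 12 in SCC25. Over all genes, 2357 of 15902 were then higher and 8032 lower in SCC15, and 5032 and 7839 of 16539 in SCC25.

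Markers of other cell types were few: of 9, 5 had a mean under 10 normalized counts in SCC15, and of the 8 listed in SCC25, 2 did. Their sum was 473 to 497 with squamocin and 775 to 825 with DMSO in SCC15, and 1096 to 1260 and 866 to 962 in SCC25. Of those tested, 0 were higher and 2 lower in SCC15 (the endothelial gene PECAM1 and the collagen gene COL3A1, at −1.19 and −0.78), and 1 was higher and 2 lower in SCC25 (COL1A1 at 0.70, PECAM1 at −4.79 and VWF at −1.20). The last 2 were low, with means in SCC25 of 2.4 with squamocin and 75.3 with DMSO for PECAM1, and 12.1 and 30.0 for VWF. With at least 10 normalized counts required in every library, 0 were called lower in SCC25. The squamous markers passed as higher for 3 of 5 tested in SCC15 and 5 of 7 in SCC25, led by KRT17 (1.17 and 1.60), and KRT5 was lower in SCC25 (−0.25, adjusted p = 0.00171, limma). Scaled to equal library totals, 2 were higher and 2 lower in SCC15, and 5 and 2 in SCC25. The part of these in the counts of the PRC2 members was not tested. In bulk RNA, a smaller share of cells that express a gene and less RNA per cell cannot be told apart.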

How the data were processed

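RNA of squamocin-treated and DMSO-treated SCC15 and SCC25 cells was sequenced. The authors aligned reads to GRCh38 with HISAT2 2.0.5 and counted them with featureCounts 1.5.0-p3. The deposited signal per gene is a count of reads over the size factor of its library, which the authors set within each cell line. 1 table labels its columns FPKM, which the values are not: multiplied by the size factor, 100% of values came out whole (tolerance 0.01). Columns with the authors' own fold changes, p-values and group means were not used.

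Normalized counts plus 1, on a log2 scale, were tested in R 4.3.3 with limma 3.58.1 (eBayes with a trend, two-sided, Benjamini-Hochberg over all genes with a mean of at least 10, threshold 0.05): 15902 genes in SCC15, 16539 in SCC25 and 14454 for the contrast between lines. Tables scaled separately were not compared by level with a test. Reads of the same genes, tested as an alternative, gave 4712 genes higher and 5168 lower in SCC15 and 6298 and 6506 in SCC25 with edgeR 4.0.16. DESeq2 1.42.0 gave 5067 and 4897, and 6093 and 6103. Ratios used MANE Select lengths (GENCODE release 44) and an exact permutation test. Other alternatives were pseudocounts of 0.1 and 10, other filters, TMM factors, equal library totals, a replicate block and each library left out.

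Named were all members and other PRC2 subunits, up to 4 genes per other list and line (the 2 largest rises and 2 largest falls past the threshold) and the 5 genes most like EZH2 with a mean of at least 100. For STUB1, USP1, AKT1 and TIMP3, the opposite call in the other line was given after it was seen. The members and lists were chosen with earlier results of these data known. The fits were tested on simulated counts with known rises and falls in a small part of the genes. In the real data most genes tested were called, so that the simulation does not address how the libraries were scaled. Most changed genes were recovered by each tool, but the share of false calls was above the nominal level for limma, edgeR and DESeq2, and was largest for DESeq2 in SCC15. The acceptance limit for that share was at first set for all tools, was not met by DESeq2 in SCC15 and edgeR in SCC25, and was then kept for limma alone.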

Additional observations from a re-analysis of the deposited data

Results flagged for a closer look

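The response to squamocin differed between SCC15 and SCC25 for 6 members and 2 other subunits, by limma's test of the difference in log2 fold change (SCC15 minus SCC25, adjusted p under 0.05), compared with 52.2% of all genes tested. The differences were −0.46 for EZH2, −0.98 for SUZ12, 0.39 for RBBP4, 0.68 for RBBP7, −0.47 for AEBP2, −0.52 for MTF2, −1.35 for LCOR (adjusted p = 6.51e-05) and −1.04 for LCORL (adjusted p = 0.000988). For SUZ12, RBBP7 and LCOR the fold changes of the lines had opposite signs, although that of RBBP7 was negative in both with equal library totals. The difference of RBBP4 was lost with that scaling (0.10, adjusted p = 0.365, limma). The shift of the all-gene median with equal library totals differed between the lines, and the difference over all genes then had a median of −0.27. With only 3 libraries, groups were not searched for single outlying values.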

How the results depend on the processing

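In SCC25, the calls and directions of the 10 members held under each alternative tried. In SCC15 the scaling mattered most. With equal library totals the log2 fold change took the other sign for EZH2 (−0.30), EED (−0.20), RBBP7 (−0.27), AEBP2 (−0.17), PHF19 (−0.013) and LCORL (−0.18). The members called moved from 4 higher and 2 lower to 2 and 4. The median over all genes moved as well, from 0.01 to −0.48. Relative to that median, these genes stayed nearly where they were. EZH2 was at 0.18 with either scaling, EED at 0.28, AEBP2 at 0.31, PHF19 at 0.47 and LCORL at 0.30, and RBBP7 at 0.22 and 0.21. In the difference between lines, the members went from 2 higher and 4 lower to 1 and 6, and all genes from 3779 higher and 3761 lower to 2396 and 5452. Lists in SCC15 with equal totals went from 1 higher and 2 lower to 0 and 6 (KDM6), 4 and 6 to 1 and 12 (other RBBP4 and RBBP7 complexes), and 3 and 8 to 0 and 15 (proliferation). All genes tested in SCC15 went from 4921 higher and 4773 lower to 2357 and 8032.

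With each library left out in turn, 3 to 7 members were called higher and 0 to 3 lower in SCC15, 7 and 3 in SCC25, and 2 higher and 4 to 6 lower in the difference. Without squamocin replicate 3, all 10 members passed in SCC15, where 6086 genes were then higher and 6022 lower of 16001 tested. Without DMSO replicate 2 or 3, 0 members were called lower, and the lower calls over all genes fell from 4773 to 3624 and 3612. The log2 ratios stayed from −1.06 to −0.82 and −0.59 to −0.50 (EZH2 to EZH1 in SCC15 and SCC25), −0.62 to −0.54 and −0.34 to −0.24 (RBBP4 to RBBP7), −0.60 to −0.40 and 0.26 to 0.38 (SUZ12 to EED), and −0.70 to −0.58 and −0.98 to −0.96 (PRC2.2 to PRC2.1). Differences between lines near 0 took both signs, from −0.15 to 0.094 for EZH1, −0.12 to 0.017 for PHF1 and −0.11 to 0.087 for EPOP. The cause was not tested.

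Same-numbered libraries did not deviate together (correlations of −0.0511 to 0.0078), so that the numbers were not taken to pair samples. With a replicate block, AEBP2 in SCC15 was no longer called (0.32, adjusted p = 0.0582, limma), and the other calls of members within lines and in the difference held.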
